A study of Mus musculus with 6 samples.

Results

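The 42 genes described here encode the machinery of DNA replication and of mitosis, and they were read in bone marrow of mice treated with a PI3Kalpha/beta inhibitor or with vehicle alone. They were taken by symbol from a list of 22 replication genes and 20 mitosis genes. All 42 of the listed symbols were among the 14992 genes of the deposited table, and all 42 passed the filter on low counts that left 12806 genes for testing. Whole marrow from Dnmt3a knockout mice (labelled Dnmt3aKO) had been transplanted into irradiated C57/BL6 recipients, and the protocol calls the transplanted cells leukemic. Dnmt3a encodes an enzyme that writes DNA methylation, and blood stem cells lacking it tend to self-renew rather than differentiate. The vehicle group held libraries 1, 2 and 3, and the inhibitor group held libraries 1, 3 and 5, from recipients dosed at 75 mg/kg over 21 days. Both groups carried the Dnmt3a knockout and the transplant, so the comparison is between treatments within one genotype. The labels name neither the driver of the knockout nor the age of the mice, and do not say whether each library came from its own mouse. If libraries shared animals, the p-values below measure only the spread between libraries. The series title asks how PI3-kinase signalling takes part in the effects of Dnmt3a loss on blood formation.

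Before a cell divides, the MCM2-7 helicase is loaded onto replication origins in G1, is fired by cyclin E and cyclin A kinases in S phase, and unwinds DNA for polymerases that are held in place by the PCNA clamp. Cyclin B with CDK1 then drives entry into mitosis, and spindle motors, kinetochore proteins and the anaphase-promoting complex carry the chromosomes apart. Transcripts of the first set peak around the G1/S boundary and are classical targets of E2F factors, and those of the second set peak in G2 and M through the DREAM and B-MYB/FOXM1 complexes. Their summed level in a tissue is widely read as a sign of how many cells are cycling. In marrow most cycling cells are erythroid, granulocytic and B lymphoid precursors. In bulk RNA, fewer cells of a type and less RNA per cell cannot be told apart.

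The replication and mitosis genes carried different letters in their promoters, and 4 promoters with matches are shown as examples. RefSeq promoter windows (GRCm38.p6, 250 bases before to 50 bases after the start of the gene) were found for 33 of the 42 genes, in 34 windows, since Mcm7 has 2 windows. Both strands were searched for E2F motifs (TTTCCCGC, TTTGGCGC, TTTCGCGC or TTTGCCGC), for the cell cycle homology region or CHR (TTTGAA or TTTAAA) and for CCAAT. None of the E2F words holds a CHR word or CCAAT, but neighbouring matches may share bases. Capitals below mark every match, written 5′ to 3′ on the strand of the gene. Mcm3 (chr1:20820263-20820562, minus strand) and Rfc3 (chr5:151651159-151651458, minus strand) are replication genes. Cdk1 (chr10:69352863-69353162, minus strand) and Top2a (chr11:99024140-99024439, minus strand) are mitosis genes.
Mcm3: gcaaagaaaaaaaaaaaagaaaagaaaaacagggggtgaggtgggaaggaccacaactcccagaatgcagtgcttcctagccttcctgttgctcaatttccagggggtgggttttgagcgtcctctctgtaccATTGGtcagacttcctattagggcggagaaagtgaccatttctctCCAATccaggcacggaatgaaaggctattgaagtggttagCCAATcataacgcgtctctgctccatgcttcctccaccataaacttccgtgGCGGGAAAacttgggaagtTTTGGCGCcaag
Rfc3: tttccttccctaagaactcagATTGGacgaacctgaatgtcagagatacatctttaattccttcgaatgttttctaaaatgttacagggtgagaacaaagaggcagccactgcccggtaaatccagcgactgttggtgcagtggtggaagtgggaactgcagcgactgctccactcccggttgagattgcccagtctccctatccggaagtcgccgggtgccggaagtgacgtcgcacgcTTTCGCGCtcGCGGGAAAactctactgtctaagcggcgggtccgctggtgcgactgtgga
Cdk1: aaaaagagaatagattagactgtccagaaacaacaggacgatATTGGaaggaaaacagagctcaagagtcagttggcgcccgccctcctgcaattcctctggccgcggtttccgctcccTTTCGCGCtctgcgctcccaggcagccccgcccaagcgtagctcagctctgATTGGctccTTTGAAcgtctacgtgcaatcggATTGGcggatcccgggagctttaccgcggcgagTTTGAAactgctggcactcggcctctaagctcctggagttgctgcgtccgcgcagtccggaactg
Top2a: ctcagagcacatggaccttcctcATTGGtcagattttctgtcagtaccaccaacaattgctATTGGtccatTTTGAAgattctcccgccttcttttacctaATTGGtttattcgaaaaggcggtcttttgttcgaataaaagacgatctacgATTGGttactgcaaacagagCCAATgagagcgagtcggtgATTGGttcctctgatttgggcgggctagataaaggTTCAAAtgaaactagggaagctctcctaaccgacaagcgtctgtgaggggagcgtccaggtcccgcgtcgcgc
The Mcm3 window holds 2 E2F matches close to the start and no CHR, and the Rfc3 window likewise holds 2 E2F matches and no CHR. The Cdk1 window holds 1 E2F match and 2 CHR matches beside 3 CCAAT boxes, and the Top2a window holds 2 CHR matches and 6 CCAAT boxes with no E2F match. Among the replication windows, 9 of 18 (50%) held an E2F match and 4 of 18 (22.2%) a CHR. The windows of Mcm2, Pcna, Rrm2 and Ccne1 held 0 E2F matches, and all of these but Pcna held 1 CHR match. Of the 16 mitosis windows, 1 (6.25%) held an E2F match, 15 (93.8%) a CHR and 9 (56.2%) a CHR with at least 2 CCAAT boxes. The same letters were present in 2.26% (E2F), 27.6% (CHR) and 3.13% (CHR with at least 2 CCAAT boxes) of all 32851 RefSeq windows. A match describes the letters only, and no binding was measured.

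None of the 42 genes differed between inhibitor and vehicle libraries at an adjusted p under 0.05, where p came from edgeR's quasi-likelihood F test with Benjamini-Hochberg adjustment over all 12806 genes. In the same test 234 genes (1.83%) were called, 81 higher and 153 lower. The lowest adjusted p among the 42 was 0.172, for Ccne2, and 1 gene (Ccne2 again) had an unadjusted p under 0.05, against 21.6% of all tested genes. DESeq2 and limma voom also called 0 of the 42, with 12.1% and 0.664% of all genes called, and edgeR at an adjusted p under 0.10 called 0 of the 42 beside 8.25% of all genes. In 2 of the 42, Ccne2 and Mki67, the groups did not overlap, as in 30.7% of all genes. The median log2 fold change of the 42 genes was -0.0088, beside 0.00093 over all tested genes, with 18 genes above 0 and 24 below. Their log2 fold changes ran from -0.59 (Ccne1) to 0.58 (Ccne2). These genes were well measured: the lowest count of any of them in any library was 676 reads, and their mean levels ran from 27.6 to 1181 CPM (the usual unit of reads of a gene relative to the scaled total of its library).

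The spread between libraries set how large a change could have gone unseen. For each gene, a 95% interval was taken as the range of log2 fold changes that the same F test does not reject. The median interval ran from -0.37 to 0.33, which is from a 1.29-fold fall to a 1.26-fold rise. In 40 of the 42 genes (95.2%) the whole interval lay within a 2-fold change either way, which held for 63.8% of all tested genes. At the wider level of 99.88%, which covers all 42 intervals at once, 29 lay within 2-fold, beside 28.4% of all genes. The exceptions at 95% were the cyclin E genes: the interval of Ccne1 reached down to a 2.48-fold fall and that of Ccne2 reached up to a 2.10-fold rise. Within the narrower limit of 1.5-fold lay 32 of the 42 intervals (76.2%), beside 32.1% of all genes. The mitosis genes were the more tightly bounded, with 20 of 20 intervals inside 1.5-fold, while 12 of the 22 replication genes were inside it. The median half-width of an interval was a 1.24-fold change for the mitosis genes, 1.36-fold for the replication genes and 1.39-fold for all genes. Abundant genes have narrower intervals, and the 42 stood at a median of the 87.07th percentile of mean CPM. The widest end over the 20 mitosis genes was a 1.44-fold fall (Plk1) and a 1.49-fold rise (Cdk1).

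**Figure D1:**
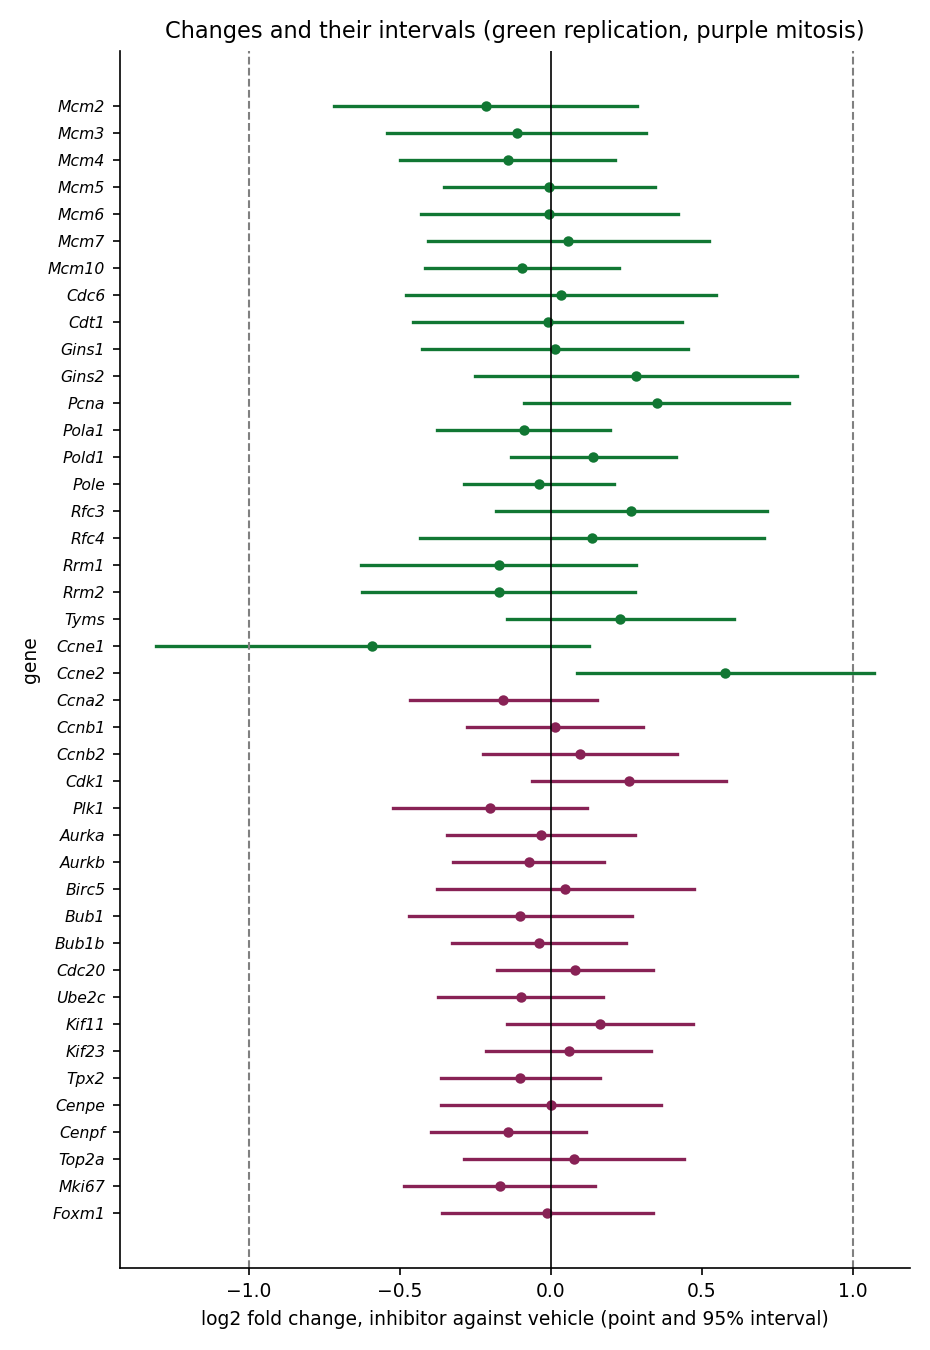
Log2 fold change of inhibitor against vehicle (x axis) for each of the 42 genes (y axis), with points for the estimates, bars for the 95% intervals, and dashed lines at a 2-fold change either way. All intervals but those of Ccne1 and Ccne2 lie between the dashed lines, and the interval of Ccne2 alone leaves out 0.

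The libraries held 28198638 to 59384880 counted reads. Of these raw counts the 42 genes took 0.973%, 0.933% and 0.906% in vehicle and 0.729%, 0.857% and 0.93% in inhibitor libraries. The scaling factors (TMM) were 1.04 to 1.059 in vehicle and 0.908 to 1.001 in inhibitor libraries, and a lower factor raises the scaled values. The fold changes and intervals rest on this scaling. With the other scalings tried, the median log2 fold change of the 42 was -0.0114 to -0.0053. A fit without such scaling was not run. Vehicle 1 stood apart from the other vehicle libraries: its gene counts differed from those of vehicles 2 and 3 by a chi-square of 242 and 292 per degree of freedom, beside 31.1 for the closest pair, vehicles 2 and 3, so no pair was a duplicate. Dnmt3a itself was read at 24.9, 17.3 and 18.9 CPM in the vehicle libraries and at 20.2, 15.4 and 15.5 CPM in the inhibitor libraries, and whole-gene counts do not check a deletion of part of the gene that all 6 libraries carry. Cell type markers moved with the treatment. The 14 macrophage markers summed to 2269 to 7196 CPM in vehicle and 905.5 to 1145 CPM in inhibitor libraries, with 6 of 14 called lower. In vehicle and inhibitor libraries, in that order, the 12 early B cell markers summed to 60.2 to 138 and 225.5 to 641 CPM (3 of 12 called higher), the 12 late granule markers of neutrophils to 40990 to 66480 and 101500 to 125900 CPM (1 of 12 higher), and the 8 primary granule markers to 2841 to 4596 and 6677 to 7496 CPM (2 of 8 higher). The 12 stem and progenitor markers summed to 277.8 to 386 and 518 to 595 CPM (2 of 12 higher) and the 12 T and NK cell markers to 230.4 to 329 and 214 to 227 CPM (1 of 12 lower). The 10 stroma and endothelium markers summed to 309.7 to 819 and 223 to 384 CPM and the 4 genes of any blood cell to 2830 to 3656 and 2946 to 4334 CPM, with 0 called in either list. The blood genes were high in each library. No marker in these lists was at 0 in any library. The part of this shift in cell types in the results on replication and mitosis genes was not tested.

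The genes that license origins and form the replicative helicase gave a median log2 fold change of -0.0063 over 11 genes, 4 above and 7 below 0. Mcm2 to Mcm7 encode the 6 subunits of the helicase ring. Mcm2 was read at 329, 238 and 237 CPM in vehicle libraries 1, 2 and 3, and gave 173, 252 and 267 CPM in inhibitor libraries 1, 3 and 5. The highest value was in vehicle 1 and the lowest in inhibitor 1, and the groups overlapped. Its log2 fold change was -0.22 ± 0.21 (SE), with an interval from -0.72 to 0.29 and an adjusted edgeR p of 0.586. It was -0.043 without vehicle 1 and -0.036 without inhibitor 1. Mcm7 stood at 450.2, 329 and 309 CPM in vehicle and 308, 407 and 418 CPM in inhibitor libraries, a log2 fold change of 0.058 ± 0.20 (interval -0.41 to 0.52, adjusted p = 0.888). The sign of the Mcm7 value is not settled by these libraries, since it turned negative without vehicle 2 (-0.0063), without vehicle 3 (-0.046) or without inhibitor 5 (-0.015). Mcm3, Mcm4, Mcm5 and Mcm6 had log2 fold changes of -0.11, -0.14, -0.0063 and -0.0055. All 6 subunits were lowest in inhibitor 1 among the inhibitor libraries.

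Scaled for gene length (RPKM, the CPM divided by the gene length in kilobases), the 6 ring subunits were present at unequal levels. In vehicle libraries Mcm7 had 151 ± 31.9 RPKM (SD, n = 3), Mcm6 127 ± 19.05, Mcm5 102 ± 5.59, Mcm3 98.00 ± 13.8, Mcm2 79.6 ± 15.7 and Mcm4 68.4 ± 5.25. In inhibitor libraries the same order of subunits gave 158 ± 25.4, 127 ± 22.00, 101 ± 14.96, 90.6 ± 16.99, 68.5 ± 15.05 and 61.9 ± 9.57 RPKM. Neighbours in this order differed by less than the sum of their SDs in both groups, with 1 exception, Mcm6 against Mcm5 in vehicle libraries. Of the loaders and firing factors, Cdc6, which recruits the helicase to origins, had 19.6 ± 4.19 RPKM in vehicle and 19.99 ± 4.53 in inhibitor libraries. Cdt1, its partner, had 42.7 ± 7.76 and 42.4 ± 7.80 RPKM. Their log2 fold changes were 0.032 and -0.011, and that of Mcm10, which helps the helicase start unwinding, was -0.095. Gins2, a subunit of the GINS complex that activates the helicase, was read at 31.4, 29.3 and 21.3 CPM in vehicle and 26.02, 31.00 and 42.5 CPM in inhibitor libraries, a log2 fold change of 0.28 ± 0.23 with an interval from -0.25 to 0.81 (adjusted p = 0.502). Inhibitor 5 held its highest value and vehicle 3 its lowest, and the estimate was 0.068 without inhibitor 5, 0.13 without vehicle 3 and 0.44 without inhibitor 1. Its partner Gins1 had 0.013.

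The clamp, clamp loaders and polymerases gave a median log2 fold change of 0.14 over 6 genes. Pcna encodes the sliding clamp that tethers polymerases to DNA and lies at chr2:132249162-132253314 (GRCm38 gene coordinates from GENCODE, here and below). It was read at 317, 278 and 235 CPM in vehicle and 285, 353 and 421 CPM in inhibitor libraries. Inhibitors 3 and 5 lay above the vehicle range, and inhibitor 1 lay inside it. The log2 fold change was 0.35 ± 0.19, its interval ran from -0.088 to 0.79, and the adjusted edgeR p was 0.316. When limma voom gave each library a weight by its fit to its group, which set vehicle 1 at 0.161, Pcna was the 1 member called (0.45, adjusted p = 0.0334), in a fit that called 22.3% of all genes. In edgeR the value was 0.46 without vehicle 1 (adjusted p = 0.165) and 0.49 without inhibitor 1, but 0.21 without inhibitor 5 (adjusted p = 0.584) and 0.245 without vehicle 3 (adjusted p = 0.542). Rfc3, a subunit of the clamp loader, stood at 39.3, 34.6 and 27.9 CPM in vehicle and 33.3, 39.9 and 49.2 CPM in inhibitor libraries (0.27 ± 0.19, adjusted p = 0.45), and its estimate ran from 0.11 without inhibitor 5 and 0.14 without vehicle 3 to 0.40 without inhibitor 1. Rfc4, of the same complex, had the widest interval of this group, from -0.43 to 0.70. The catalytic subunits of the 3 replicative polymerases had the narrowest intervals of the 22 replication genes: Pola1 had -0.091 (interval -0.38 to 0.20), Pold1 0.14 (-0.13 to 0.41) and Pole -0.04 (-0.29 to 0.21). Pcna was the most abundant of the 42 genes per length, at 219.7 ± 32.6 RPKM in vehicle and 279.96 ± 53.9 in inhibitor libraries, and Pole (polymerase epsilon) and Cenpf (a kinetochore gene) were the least. Pole stood at 10.8 ± 0.18 and 10.5 ± 0.76 RPKM and Cenpf at 11.4 ± 0.77 and 10.3 ± 0.45 RPKM, so Pole was lower in vehicle and Cenpf in inhibitor libraries, by less than the sum of their SDs.

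Genes of nucleotide supply had log2 fold changes from -0.17 to 0.23. Rrm1 and Rrm2 encode the large and small subunits of ribonucleotide reductase, which makes deoxyribonucleotides. Rrm2 was read at 516, 364 and 344 CPM in vehicle and 314, 372 and 399.7 CPM in inhibitor libraries, a log2 fold change of -0.17 ± 0.19 (adjusted p = 0.63). Vehicle 1 lay above the other 5 libraries, and without it the value was 0.031. It was -0.07 without inhibitor 1 and -0.28 without vehicle 3. Rrm1 had the same pattern, with 686, 512 and 465 and 410.4, 527 and 537 CPM (-0.17). Tyms, the enzyme that makes thymidylate, stood at 84.2, 89.7 and 68.6 CPM in vehicle and 80.3, 94.3 and 109.7 CPM in inhibitor libraries, a log2 fold change of 0.23 ± 0.16 (interval -0.15 to 0.61, adjusted p = 0.438), and its groups overlapped. The estimate was 0.115 without inhibitor 5 and 0.124 without vehicle 3.

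The intervals of the cyclin E genes reached furthest from 0 among the 42, and their estimates had opposite signs. Both encode cyclins that activate CDK2 at the G1/S boundary. Ccne1 (chr7:38097984-38107534) was read at 116, 60.1 and 58.97 CPM in vehicle and 37.8, 59.95 and 57.9 CPM in inhibitor libraries. Vehicle 1 lay far above the other vehicle libraries, and inhibitors 3 and 5 lay within a few CPM of vehicles 2 and 3. The log2 fold change was -0.59 ± 0.31, the interval ran from -1.31 to 0.12, and the adjusted p was 0.302. The value was -0.20 without vehicle 1 and -0.395 without inhibitor 1, and ran from -0.76 to -0.67 without each other library. Ccne2 (chr4:11191351-11204779) stood at 64.9, 106 and 82.7 CPM in vehicle and 113, 114 and 152 CPM in inhibitor libraries. Each inhibitor library lay above each vehicle library, which was so for 14.4% of all tested genes. Its log2 fold change was 0.58 ± 0.21, with an interval from 0.086 to 1.07, an unadjusted p of 0.0272 and an adjusted p of 0.172, so the edgeR test over all genes did not call it. With 1 library left out the value ran from 0.42 (without vehicle 1) to 0.78 (without vehicle 2), with adjusted p from 0.109 to 0.389. In vehicle 1 Ccne1 was at its highest and Ccne2 at its lowest of the 6 libraries.

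**Figure D2:**
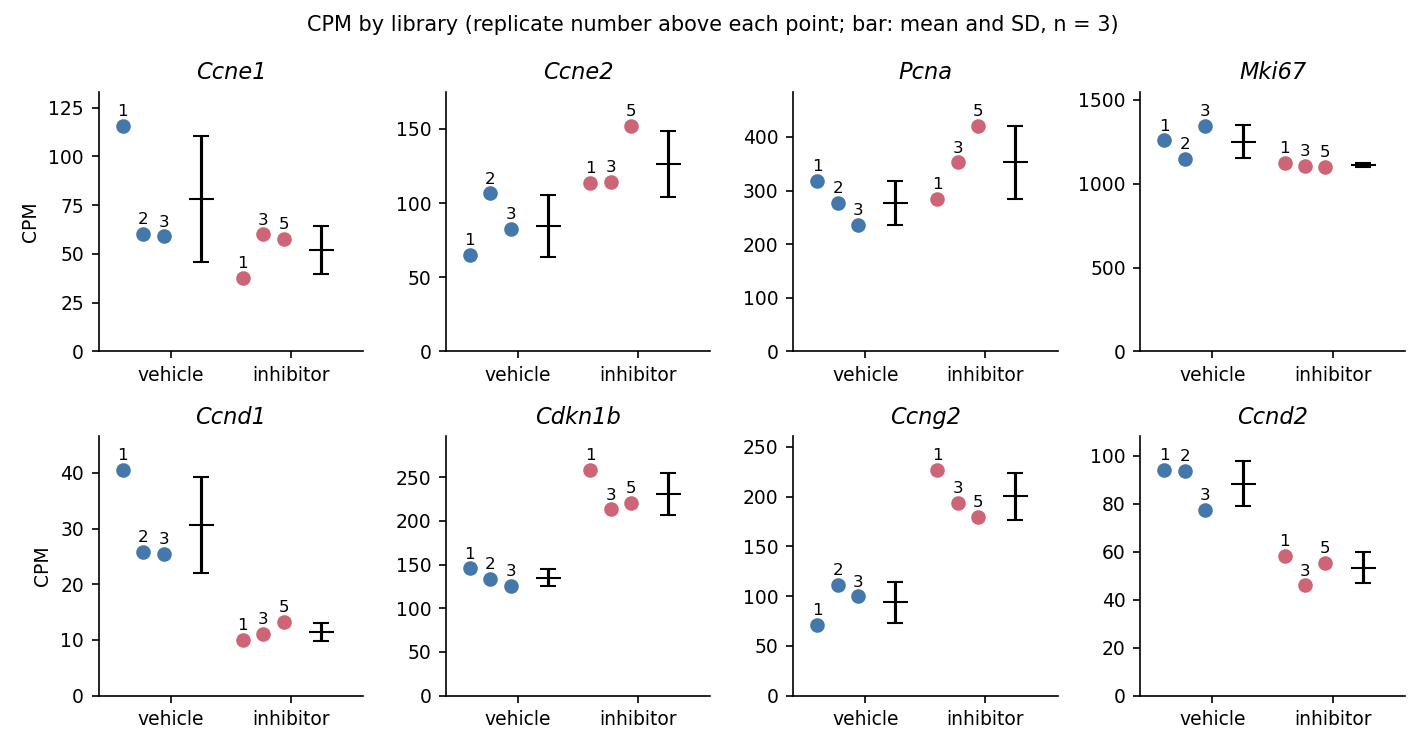
CPM (y axis, from 0) of 8 genes in each library, by treatment group (x axis), with the replicate number above each point and a bar for the mean and SD of 3 libraries. The groups overlap for Ccne1 and Pcna, vehicle 1 is the highest library for Ccne1 (116 CPM) and the lowest for Ccne2 (64.9 CPM), and the groups do not overlap for the other 6 genes.

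Among the mitotic cyclins and their kinase the median log2 fold change was 0.06 over 4 genes. Cdk1, the kinase that drives mitotic entry, was read at 151, 151 and 126 CPM in vehicle and 151, 173 and 187 CPM in inhibitor libraries. Inhibitors 3 and 5 were above the vehicle range and inhibitor 1 was inside it. Its log2 fold change was 0.26 ± 0.14 with an interval from -0.064 to 0.58 (adjusted p = 0.315), the largest estimate of the 20 mitosis genes. Ccna2, the cyclin of S and G2, stood at 380.3, 352 and 332 CPM in vehicle and 283, 336 and 335 CPM in inhibitor libraries (-0.16 ± 0.13, adjusted p = 0.519). The B-type cyclins, which pair with CDK1, had values near 0: Ccnb1 0.014 (interval -0.28 to 0.31) and Ccnb2 0.10 (-0.22 to 0.42).

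Mitotic kinases, checkpoint proteins and subunits or activators of the anaphase-promoting complex gave a median of -0.06 over 8 genes. Plk1, the polo kinase of mitotic entry and spindle assembly, was read at 102, 133 and 132 CPM in vehicle and 104, 112 and 104 CPM in inhibitor libraries. Vehicles 2 and 3 lay above all inhibitor libraries and vehicle 1 lay below them. The log2 fold change was -0.20 ± 0.14, the interval -0.52 to 0.12 and the adjusted p 0.427. Without vehicle 1 it was -0.32 (unadjusted p = 0.0173, adjusted p = 0.106), and without each other library it ran from -0.23 to -0.14. Ube2c, the ubiquitin-conjugating enzyme of the anaphase-promoting complex, stood at 154, 144 and 136 and 123, 139 and 142 CPM (-0.10 ± 0.12, adjusted p = 0.642). The Aurora kinases, which act at centrosomes (Aurka) and centromeres (Aurkb), had log2 fold changes of -0.033 and -0.074, and Birc5, the survivin subunit that works with Aurkb, had 0.047. The spindle checkpoint genes Bub1 and Bub1b had -0.10 and -0.04, and Cdc20, the activator they restrain, had 0.08 (interval -0.18 to 0.34).

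Spindle and kinetochore genes were as close to 0, with a median of -0.0011 over 5 genes. Kif11, the motor that pushes spindle poles apart, was read at 283, 352 and 309.5 CPM in vehicle and 365, 352 and 341 CPM in inhibitor libraries, a log2 fold change of 0.16 ± 0.13 (adjusted p = 0.502). Cenpf, a kinetochore protein of G2 and M, stood at 119, 126 and 136 and 120.5, 114 and 111 CPM (-0.14 ± 0.11, adjusted p = 0.487). Kif23, a motor of cytokinesis, had 0.059, and Tpx2, a spindle assembly factor, had -0.10 (interval -0.37 to 0.16). Cenpe, a kinetochore motor, was read at 105, 145 and 149 CPM in vehicle and 135, 133 and 130.1 CPM in inhibitor libraries, with an interval from -0.37 to 0.36. For Cenpe and Kif11 vehicle 1 was the lowest of the 6 libraries.

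Mki67 and Top2a are the proliferation markers most often read in tissue. Mki67 encodes the coat protein of mitotic chromosomes detected as Ki-67, at chr7:135689784-135716361. It was read at 1259, 1148 and 1346 CPM in vehicle and 1123, 1109 and 1103 CPM in inhibitor libraries. Each inhibitor library lay below each vehicle library, which was so for 16.2% of all tested genes, and the coefficient of variation of the 3 inhibitor values (SD over mean) was 0.938%. The log2 fold change was -0.17 ± 0.14, the interval -0.49 to 0.15 and the adjusted edgeR p 0.497, so a fall of more than 1.402-fold lay outside the interval. Top2a, the topoisomerase that untangles sister chromosomes, stood at 718, 970.3 and 884 CPM in vehicle and 938, 886 and 889 CPM in inhibitor libraries (0.077 ± 0.16, interval -0.29 to 0.44, adjusted p = 0.801). Vehicle 1 was its lowest library, and without vehicle 1 the value was -0.037. Foxm1, which encodes a factor that drives many of the G2/M genes, had -0.012 (interval -0.36 to 0.34).

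Within each group, the replication genes shared much of their order of libraries, and the order differed from that of the mitosis genes. Inhibitor 1 was the lowest inhibitor library in 22 of 22 replication genes, and in 15 of them it was the lowest of all 6 libraries. Inhibitor 5 was the highest of its group in 19 of 22 and vehicle 1 the highest of its group in 18 of 22. Over the 20 mitosis genes vehicle 1 took the other end: it was the lowest vehicle library in 12 and the lowest of all 6 in 10. As a score (the mean of log2(CPM + 1) over the genes), replication was 7.15, 6.96 and 6.83 in vehicle libraries 1, 2 and 3, against 6.73, 7.07 and 7.195 in inhibitor libraries 1, 3 and 5. The group means were 6.98 ± 0.16 and 6.998 ± 0.24 (SD, n = 3), a difference of 0.018 that is smaller than either SD. The mitosis score was 7.39, 7.54 and 7.47 in vehicle and 7.42, 7.46 and 7.47 in inhibitor libraries, with means of 7.46 ± 0.076 and 7.45 ± 0.028 and a difference of -0.012. The groups overlapped for both scores.

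**Figure D3:**
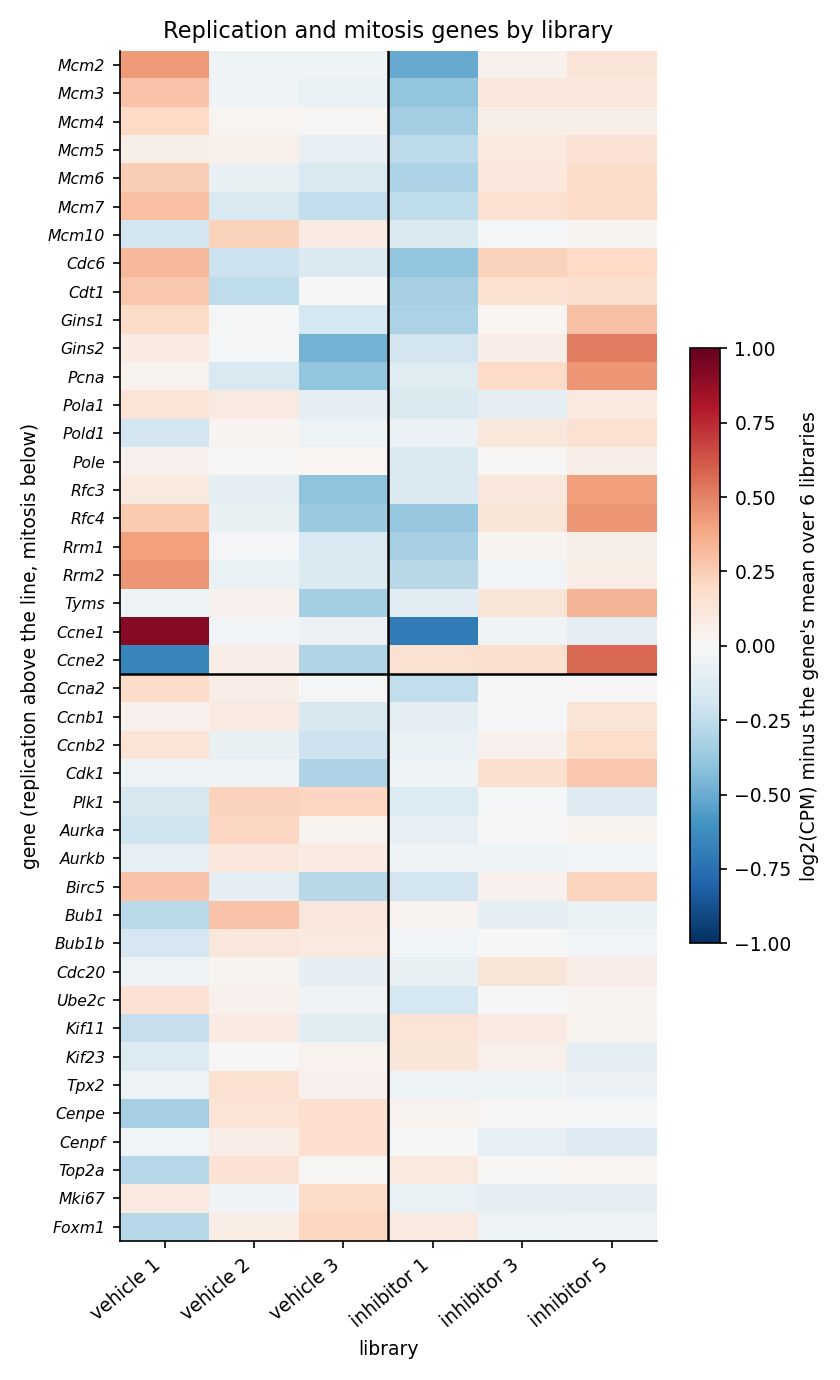
Deviation of log2(CPM) from the gene's mean over 6 libraries (colour) for each of the 42 genes (y axis, replication above the line and mitosis below) in each library (x axis). The upper left column is mostly red for vehicle 1 and the inhibitor 1 column is blue there for every gene but Ccne2, while the lower block is paler, most of all in the inhibitor libraries.

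The mitosis genes were also more alike among inhibitor libraries than among vehicle libraries. Their median coefficient of variation was 10.4% in vehicle and 4.58% in inhibitor libraries, and it was smaller under inhibitor in 15 of 20 genes (75%). Over all tested genes it was smaller under inhibitor in 67.1%, with medians of 18.2% and 13%, so most genes showed this order. The replication genes did not: their medians were 15.9% and 17.4%, and the coefficient was smaller under inhibitor in 6 of 22 genes (27.3%). Tpx2 had the smallest value under inhibitor, at 0.462%, followed by Aurkb at 0.691%. These are descriptions of 3 libraries a group and were not tested.

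Erythroid precursors are among the fast-cycling cells of marrow. The erythroid score over 13 of 14 listed genes in the table was 8.15, 6.61 and 6.76 in vehicle libraries 1, 2 and 3, against 6.06, 7.02 and 7.18 in inhibitor libraries 1, 3 and 5. Vehicle 1 was the highest of its group and inhibitor 1 the lowest of its group for erythroid markers and for replication genes alike. The macrophage score had the same ends (8.2, 6.85 and 7 in vehicle, 4.83, 5.4 and 5.13 in inhibitor libraries). So did the stroma and endothelium score (5.76, 4.12 and 4.3, then 3.36, 3.59 and 4.07). Vehicle 1 was instead the lowest vehicle library for the primary granule (7.56), stem and progenitor (3.68), early B cell (2.11) and any blood cell (9.32) scores. Summed, the erythroid markers gave 6228 CPM in vehicle 1, 1822 to 2058 CPM in the other vehicles and 1171 to 2578 CPM in inhibitor libraries, and 0 of 13 were called. The late granule markers of neutrophils scored 10.56, 11.28 and 11.31 in vehicle and 12.14, 11.88 and 11.45 in inhibitor libraries. Vehicle 1 and inhibitor 1 thus held the opposite ends from those of the erythroid markers. The part of any of these cell types in the spread of the replication genes was not tested. Without vehicle 1, 42 of the 42 intervals lay within a 2-fold change (71.7% of all genes), the widest ends were a 1.57-fold fall and a 1.89-fold rise, and 0 of the 42 genes were called while 7.99% of all genes were.

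**Figure D4:**
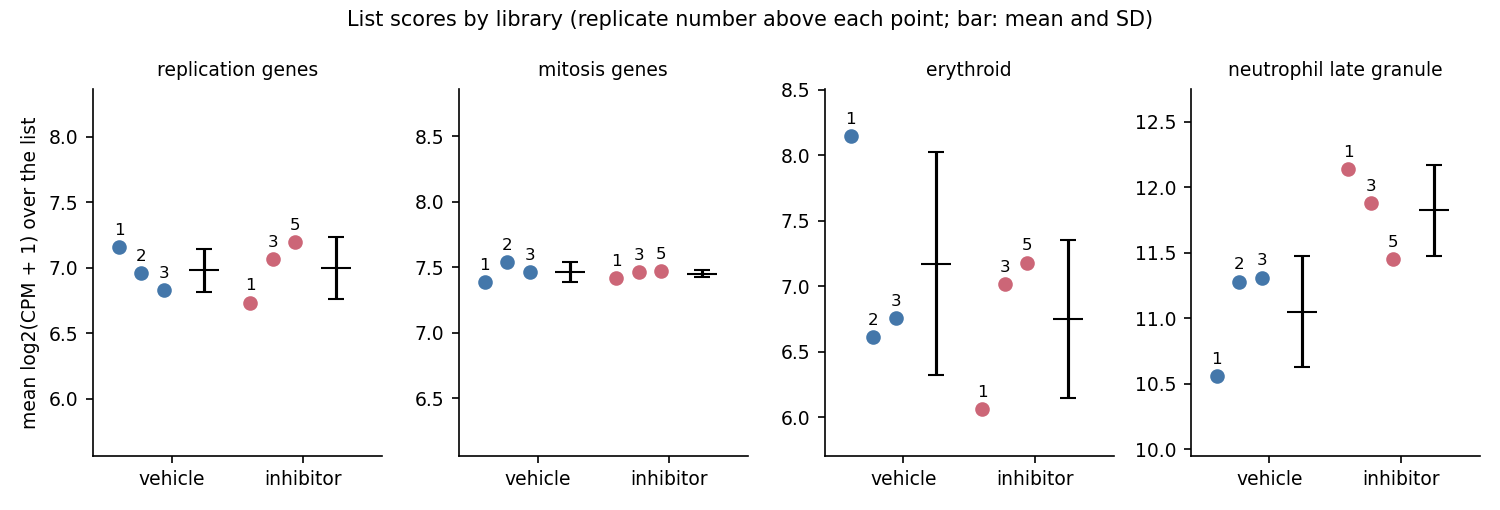
Score by library (y axis, mean log2(CPM + 1) over the list) for 22 replication genes, 20 mitosis genes, 13 erythroid markers and 12 late granule markers, by treatment group (x axis), with replicate numbers above the points and bars for the mean and SD of 3 libraries. Each panel spans the same number of log2 units, and the replication and erythroid panels share their highest vehicle library (1) and their lowest inhibitor library (1).

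The rest of the replication and mitosis machinery was read from wider lists. Of 57 other replication genes, 0 were called in either direction, 5 had an unadjusted p under 0.05 with a higher value in inhibitor libraries (9.68% of all genes did) and none with a lower one, and the median log2 fold change was 0.11 with 39 above 0. The smallest p was that of Cdc7, the kinase that fires origins, which stood at 28.3, 34.2 and 30.6 CPM in vehicle and 47.6, 45.5 and 50.1 CPM in inhibitor libraries (0.62 ± 0.12, adjusted p = 0.055). The groups did not overlap. The adjusted p was 0.0282 without vehicle 1 and 0.000842 by DESeq2, but 0.0606 by limma voom and 0.0703 to 0.204 without each other library. Of 64 other mitosis genes (68 were listed and 64 were in the table), 0 were called, 10 had an unadjusted p under 0.05 upward and 1 downward (9.68% and 11.9% of all genes), and the median was 0.05. Cks2, a small subunit bound to CDK1, had the smallest p there, with 64.9, 70.8 and 57.6 CPM in vehicle and 91.2, 98.5 and 113 CPM in inhibitor libraries (0.65 ± 0.13, adjusted p = 0.0593). Its adjusted p was 0.0353 without vehicle 1 and 0.00159 by DESeq2, but 0.0689 by limma voom and 0.0764 to 0.204 without each other library. Each inhibitor library lay above each vehicle library in 12 of the 57 and 16 of the 64 genes, beside 14.4% of all genes. Each lay below in 1 and 8 of them, beside 16.2% of all genes. The 19 genes of the E2F, RB and DREAM regulators gave 0 calls, 0 at an unadjusted p under 0.05 and a median of 0.07. Lin52, of the DREAM core, had the smallest p (0.38 ± 0.18, adjusted p = 0.263).

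Calls in the wider cell cycle lists came from regulators of the G1 phase, the step before the replication genes are switched on. This list of 18 genes held cyclins, kinases and CDK inhibitors, with Myc, Skp2 and Cdc25a beside them. Of the 18, 2 were called higher and 1 lower, beside 0.633% and 1.19% of all genes. Cdkn1b encodes the CDK inhibitor p27 and lies at chr6:134920401-134925513. It was read at 146, 134 and 126 CPM in vehicle and 258, 213 and 221 CPM in inhibitor libraries, with means of 135 ± 9.9 and 231 ± 24 (SD over 3 libraries). The groups were well apart. The log2 fold change was 0.77 ± 0.13 (adjusted p = 0.042). Ccng2, an atypical cyclin linked to cell cycle exit (chr5:93267257-93276231), stood at 70.9, 111 and 99.7 CPM in vehicle and rose to 227, 194 and 179.8 CPM in inhibitor libraries, a log2 fold change of 1.09 ± 0.19 (adjusted p = 0.0434). Both genes are textbook targets of FOXO factors, which AKT holds inactive downstream of PI3-kinase. Whether FOXO factors had a part in these values was not tested. Ccnd1, the D-type cyclin that starts G1 progression (chr7:144929931-144939925), stood at 40.5, 25.8 and 25.5 CPM in vehicle and fell to 9.95, 11.1 and 13.2 CPM in inhibitor libraries, a log2 fold change of -1.42 ± 0.22 (adjusted p = 0.0403).

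These 3 calls sat close to the threshold. They held without vehicle 1, with adjusted edgeR p of 0.0144 for Cdkn1b, 0.0122 for Ccng2 and 0.00675 for Ccnd1, and by DESeq2 (7.17e-06, 5.6e-05 and 1.77e-06). By limma voom each fell short, with adjusted p of 0.0517, 0.0537 and 0.0547. Each was lost when any other library was left out: the adjusted p for Cdkn1b was 0.0764 without vehicle 2, 0.108 without vehicle 3, 0.141 without inhibitor 1, 0.163 without inhibitor 3 and 0.146 without inhibitor 5. In the same 5 fits the adjusted p ran from 0.0598 to 0.177 for Ccng2 and from 0.0567 to 0.17 for Ccnd1. Few genes of any kind were called in these fits: 7 higher and 84 lower of 13016 without vehicle 2. Without vehicle 3, inhibitor 1, inhibitor 3 or inhibitor 5, 0 of all tested genes were called. The loss was therefore not particular to these 3 genes. The log2 fold change of Cdkn1b stayed between 0.69 and 0.83 over the 6 fits that leave out 1 library, that of Ccng2 between 0.925 and 1.23, and that of Ccnd1 between -1.54 and -1.17. The macrophage and neutrophil markers given above moved over the same libraries, and their part in the 3 calls was not tested. Chosen after their values were seen, Ccnd2 stood at 93.96, 93.7 and 77.4 CPM in vehicle and 58.4, 45.96 and 55.3 CPM in inhibitor libraries (-0.73 ± 0.14, adjusted p = 0.0537), and Cdkn1a, encoding p21, at 168, 26.1 and 29.8 and 17.6, 16.4 and 19.9 CPM (-2.05 ± 0.70, adjusted p = 0.154), where vehicle 1 alone stood high. The other D-type cyclin and the kinases it activates had values near 0: Ccnd3 0.019, Cdk4 0.066 and Cdk6 -0.13.

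**Figure D5:**
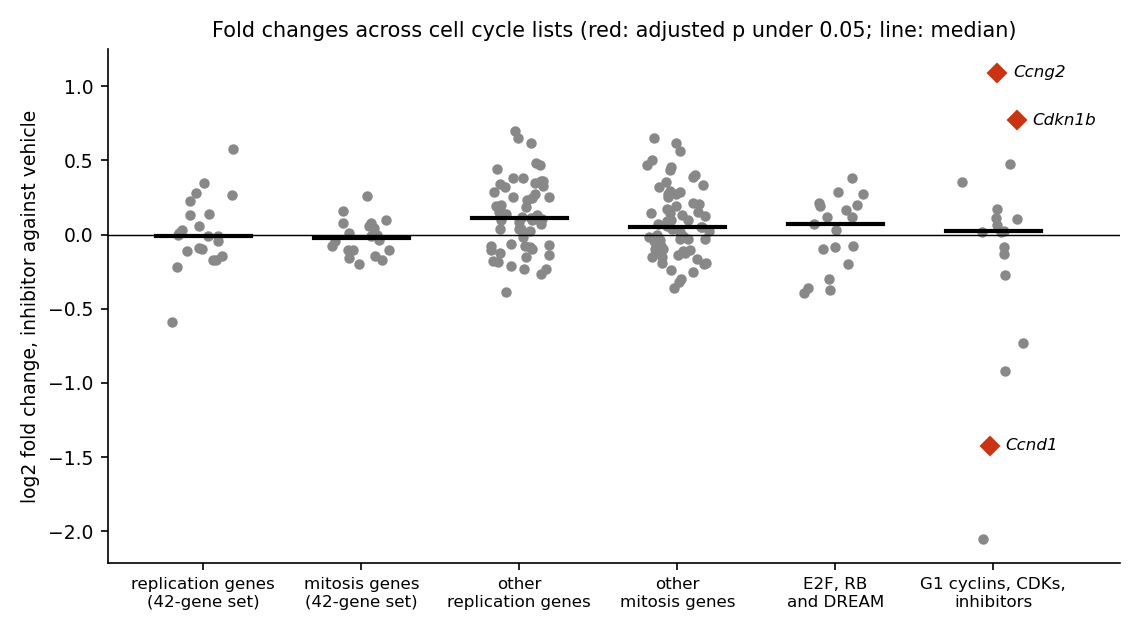
Log2 fold change of inhibitor against vehicle (y axis) for each tested gene of 6 cell cycle lists (x axis), with grey points for genes not called, red diamonds for genes at an adjusted edgeR p under 0.05 and black lines for the list medians. Red diamonds appear in the G1 list alone (Ccng2, Cdkn1b and Ccnd1), and the replication and mitosis genes of the 42 lie between -0.59 and 0.58.

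In the authors' deposited table, 0 of the 42 genes had an adjusted p under 0.05, while 1492 of 14992 genes (9.95%) did. The lowest adjusted p of the 42 in the authors' deposited table was 0.128, for Ccne2.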

How the data were processed

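RNA was purified from marrow cells, made into full-length cDNA with SMART-Seq v4 and into libraries with Nextera XT, which does not mark strand, per the labels' protocols. STAR, featureCounts and the mm10 build are named in the submitters' processing notes, with no versions given in the sources used here. Raw read counts per gene were deposited by the authors. Per the file headers, the table also holds gene lengths, the fold change (a ratio) and its log2 value, and raw and adjusted p-values. The authors' test behind these is not given in the sources. The 14992 empty lines between genes were dropped.

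The counts of all 6 libraries entered edgeR 4.0.16 (R 4.3.3), with group as the single term: filterByExpr left out 2186 genes, TMM scaled the libraries, and the quasi-likelihood F test was adjusted by Benjamini-Hochberg over 12806 genes, with calls at 0.05. The common biological coefficient of variation came to 25.2%. Intervals invert the F test gene by gene, each at 95% on its own, and the SE is the half-width over the square root of the critical F. CPM uses TMM-scaled library sizes, and RPKM the deposited lengths. Reads of overlapping genes cannot be told apart by strand. The steps were tested on simulated data. Total counts ran from 28198638 to 59384880.

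The members, gene lists, role groups and tests were chosen with earlier results of these data known. In each of 8 role groups, full statistics are given for the 2 genes with the smallest p and the 1 with the highest mean RPKM; in each of 4 wider lists, for every called gene, or else the gene with the smallest p; and 9 cell type marker lists are given by counts and levels. Alternatives were DESeq2 1.42.0 (size factors or Wald test), upper-quartile scaling, TMM without the 10 most abundant genes, limma 3.58.1 voom with and without quality weights, other filters (none, or 5 CPM in 3 libraries), an adjusted p under 0.10, other interval limits and levels, score pseudocounts of 0.1 and 5, leaving out each library in turn, and a block for the replicate number. Promoter windows are RefSeq's; in 23 of 33 genes the bases just after the start lay in a GENCODE transcript of the same gene, on the printed strand.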

Additional observations from a re-analysis of the deposited data

How the results depend on the processing

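The 42 replication and mitosis genes gave 0 calls under 14 of the 15 other fits at an adjusted p under 0.05. The remaining fit, limma voom with sample quality weights, called 1 (Pcna), beside 22.3% of all genes. The 0 calls include each library left out (0 to 0). Without vehicle 3, inhibitor 1, inhibitor 3 or inhibitor 5, however, 0 of all tested genes were called. The block for the replicate number called 0 higher and 7 lower of 12806 genes. A 0 in those fits says nothing particular about the 42. The number of intervals inside a 2-fold change was 39 to 42 with a library left out, beside 53.8% to 71.7% of all genes. It was 31 with the replicate number as a block, beside 32.8% of all genes. The median log2 fold change ran from -0.0713 to 0.0342 with a library left out and was -0.0568 under the block. Vehicles and inhibitors share the replicate numbers 1 and 3. Deviations of same-numbered libraries from their group means correlated at -0.514 and -0.103 over genes. Those of differently numbered libraries ran from -0.476 to 0.505. With so few same-numbered libraries, these values cannot decide whether the numbers pair them, and the main fit took them as unpaired.

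Among the members given full statistics, signs of 4 uncalled genes turned: Mcm2 to 0.017, Rrm2 to 0.034 and Top2a to -0.0358 with quality weights; Rrm2 to 0.0307 and Top2a to -0.0368 without vehicle 1; and Mcm7 to -0.0748 under the block, -0.00628 without vehicle 2, -0.046 without vehicle 3 and -0.0147 without inhibitor 5. With a library left out Mcm7 ran from -0.046 to 0.242, Rrm2 from -0.282 to 0.0307 and Top2a from -0.0368 to 0.175. Without vehicle 1, Mcm3 (0.00751), Mcm5 (0.0196), Mcm6 (0.122), Cdt1 (0.13) and Rrm1 (0.00842) also turned positive; signs of members without full statistics were not followed through the other alternatives. The wider lists were run through the same alternatives after seeing the data. Their 3 calls, beside 1.83% of all genes, became 11 by DESeq2's Wald test (12.1% of all genes) and 0 by limma voom (0.664%). They became 28 with quality weights (22.3%) and 7 at an adjusted p under 0.10 (8.25%). By DESeq2 they were 9 higher and 2 lower, beside 628 higher and 926 lower of all genes. With quality weights they were 26 higher and 2 lower, beside 1374 higher and 1483 lower of all genes. The 5 CPM filter gave 5, beside 89 higher and 162 lower of 9703 genes, and the block gave 0, beside 0 and 7 of 12806. With a library left out they ran from 0 to 7, with 0 to 7.99% of all genes called. Calls over all genes thus changed in the same fits. The cause was not tested. With 3 libraries a group, the median interval reached 1.28-fold to either side of its estimate, which limits the smaller changes these libraries can show.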
